A study of Mus musculus with 6 samples.

Results

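The genes described here are 8 that encode steps of branched-chain amino acid breakdown, out of 39177 genes in the count tables. They are Bcat2, Bckdha, Bckdhb, Dbt, Bckdk, Ppm1k, Ivd and Hibadh, found by matching Ensembl identifiers to symbols, and all 8 were found. They were named with the difference between knockout and control already in view, that is, they were selected on their knockout and control values, so that difference is given for them as a description. The share of all nuclear genes that passed stands beside their count without a comparison being drawn, and no p-value is given for them.

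RNA came from crude heart mitochondria of C57BL/6N mice aged 3 to 4 weeks, with 3 control and 3 knockout libraries. Control mice (L/L, labelled Polrmt +/+) carried Polrmt with a loxP-flanked exon 3 and no cre. Knockout mice (L/L, cre, labelled Polrmt -/-) carried the same alleles and cre driven by the muscle creatine kinase promoter, which acts in heart and skeletal muscle cells, so other cells of the heart keep the gene. Polrmt encodes the RNA polymerase of mitochondria, and the series asks how its loss changes transcripts.

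Leucine, isoleucine and valine share the first steps of their breakdown, which run in mitochondria. Bcat2 moves the amino group to 2-oxoglutarate, and the branched-chain 2-oxoacid dehydrogenase complex then commits the carbon skeleton in an irreversible step. The complex is switched off when the kinase encoded by Bckdk phosphorylates its E1 alpha subunit, and switched on again by the phosphatase encoded by Ppm1k. Heart muscle takes up these amino acids and can oxidise them, and defects in this control have been studied in heart failure.

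Transcripts of mtDNA made up 79.5% to 83.5% of counts in controls and 21.1% to 25.8% in knockouts. All levels below are therefore counts per 1000000 nuclear counts (CPM), without 5 loci that collect rRNA reads, scaled by TMM. Each library held between 76949 and 164004 such counts, and 3 counts correspond to between 18.3 and 37.9 CPM. Values this low carry a large counting error. For Polrmt itself, controls gave 3, 2 and 1 counts and knockouts 2, 5 and 1, and gene counts do not resolve the deleted exon 3. Nuclear transcripts in a mitochondrial preparation are those that stayed with it, and a change in the tissue cannot be told apart from a change in what was retained. Likewise, fewer cells of a type and less RNA per cell cannot be told apart.

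Of the 8 genes, the phosphatase gene Ppm1k and the leucine-branch gene Ivd were lower in knockouts, by 2.91-fold and 2.29-fold. The aminotransferase, the complex subunits, the kinase and Hibadh had overlapping groups. By edgeR's quasi-likelihood test (adjusted p under 0.05) 2 of the 8 passed, both lower. Of all 6838 nuclear genes tested, 2.18% passed as lower and 5.38% in either direction. None of the 8 passed upward (0 genes), where 3.20% of all tested genes did. At an unadjusted p under 0.05 the count was also 0, where 9.24% of all tested genes were higher, and with DESeq2 it was 0, where 1.21% were. Downward, 2 of the 8 were lower at an unadjusted p under 0.05, where 7.21% of all tested genes were. DESeq2 called 1 of the 8 lower, where it called 0.483% of all tested genes lower. Ppm1k and Ivd were also the 2 genes whose groups did not overlap. Of all tested genes 21.8% did not overlap, and 9.81% did so with knockouts lower. The median log2 fold change was -0.04 over the 8 genes and 0.03 over all genes tested. The sum over the 8 genes was 985, 722 and 959 CPM in controls and 589, 772 and 610 CPM in knockouts, so the summed levels overlapped.

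**Figure D1:**
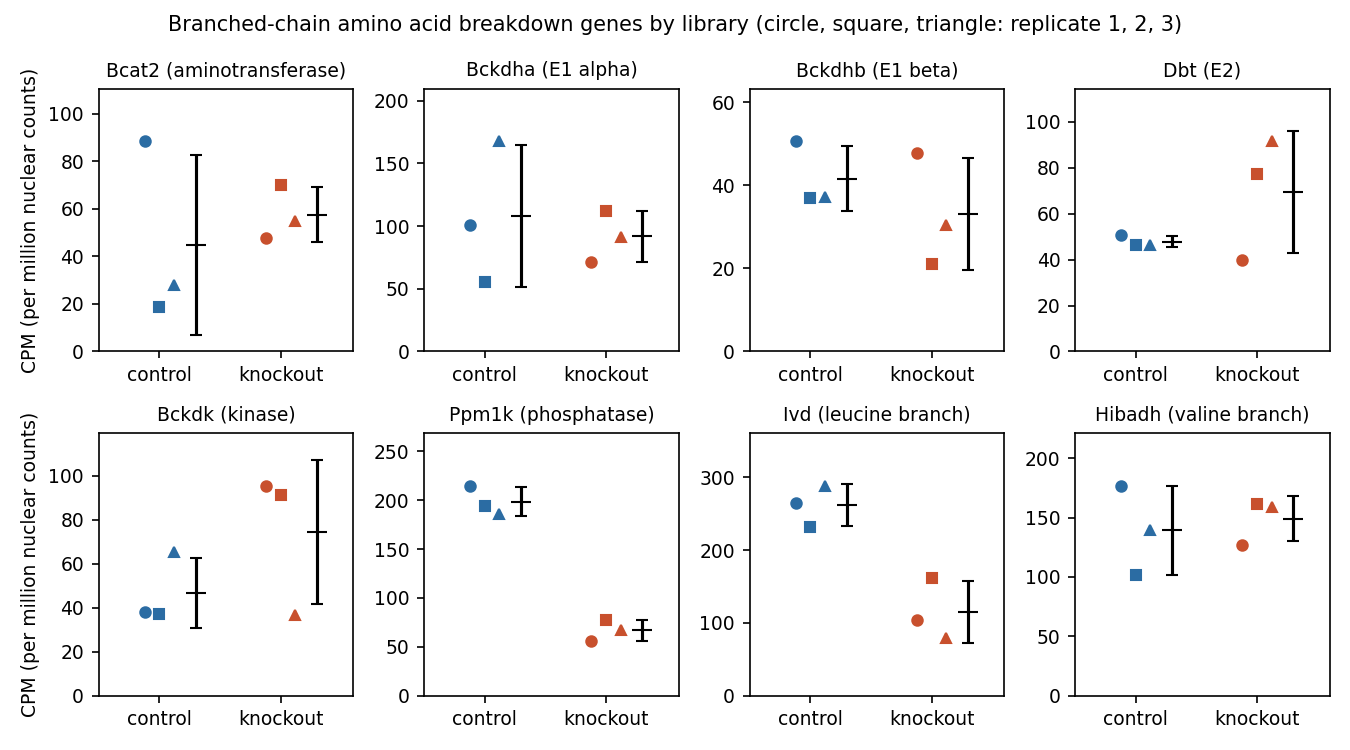
Level of each of the 8 genes in each library, in CPM of nuclear counts (vertical axes start at 0). Points are libraries, and bars show the mean and SD of 3 libraries; Ppm1k and Ivd are the panels in which every knockout lies below every control.

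Bcat2 (chromosome 7, 45570153 to 45589711), the mitochondrial aminotransferase, was weakly detected. Controls held 7, 2 and 3 counts and knockouts 6, 10 and 9, which is 88.4, 18.5 and 27.9 CPM against 47.7, 70.2 and 54.9 CPM. Control 1 was the highest of all 6 libraries and the other 2 controls were the lowest. The pooled counts, 12 against 25, gave a ratio of knockout to control of 1.42 with a 95% exact interval from 0.688 to 3.10. The fitted log2 fold change of 0.49 ± 0.53 (SE) was 1.28 without control 1, 0.25 without control 3 and 0.090 without control 2, so its size rests on single control libraries. Intervals on pooled counts cover counting error only.

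The 3 genes specific to the complex kept a similar summed level. Bckdha (chromosome 7, 25629946 to 25658981) encodes E1 alpha, the subunit that carries the regulatory phosphorylation, and had 101, 55.5 and 168 CPM in controls and 71.6, 112 and 91.5 CPM in knockouts. Its log2 fold change of -0.23 ± 0.37 (SE) turned to 0.30 without control 3, the highest library. Bckdhb (chromosome 9, 83925145 to 84124240) encodes E1 beta, the partner that completes the decarboxylase. It had 50.5, 37.0 and 37.2 CPM in controls and 47.7, 21.1 and 30.5 CPM in knockouts, from 12 and 14 counts in all. The knockout range of Bckdhb spans most of its control range, and the pooled ratio was 0.796 (95% exact interval 0.342 to 1.88).

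Dbt (chromosome 3, 116513070 to 116549981) encodes E2, the lipoyl-bearing core on which the complex is built. It had 50.5, 46.3 and 46.5 CPM in controls, a narrow range, and 39.8, 77.2 and 91.5 CPM in knockouts, with knockout 1 below and the others above every control. The pooled ratio of Dbt was 1.51 (95% exact interval 0.780 to 3.07). Summed over Bckdha, Bckdhb and Dbt, controls had 202, 139 and 251 CPM and knockouts 159, 211 and 213 CPM. Pooled over libraries, these sums were 196.8 CPM in controls (58 counts) and 196.7 CPM in knockouts (85 counts). The knockout values lie inside the control range. Dld, which encodes the E3 subunit shared with other dehydrogenase complexes, did not pass the test, at a log2 fold change of 0.18 ± 0.19 (SE).

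Ppm1k (chromosome 6, 57506502 to 57535468), the phosphatase that activates the complex, was the lowest of the 8 genes in fold change. Controls held 17, 21 and 20 counts and knockouts 7, 11 and 11, although knockout libraries held more nuclear counts. In CPM it went from 215, 194 and 186 in controls to 55.7, 77.2 and 67.1 in knockouts. The lowest control is thus well above the highest knockout, and the spread within each group was small, with means of 198 ± 14.7 and 66.7 ± 10.8 CPM (SD, n = 3 each). The log2 fold change was -1.54 ± 0.33 (SE), and 1.39% of all tested genes had a lower one. Leaving out any 1 library gave between -1.65 and -1.44.

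Bckdk (chromosome 7, 127904082 to 127910221), the kinase that inactivates the complex, gave 3, 4 and 7 counts over the controls and 12, 13 and 6 over the knockouts. These are 37.9, 37.0 and 65.1 CPM in controls and 95.5, 91.3 and 36.6 CPM in knockouts. Knockouts 1 and 2 lay above every control, while knockout 3 was the lowest of the 6 libraries. The pooled ratio was 1.51 (95% exact interval 0.780 to 3.07), and the log2 fold change was 0.59 ± 0.48 (SE).

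The ratio of kinase to phosphatase counts needs no scaling between libraries. It was 0.176, 0.190 and 0.350 in controls and 1.71, 1.18 and 0.545 in knockouts, so every knockout lay above every control. Pooled over libraries, there were 0.241 Bckdk counts per Ppm1k count in controls (95% exact interval 0.124 to 0.438) and 1.07 in knockouts (0.623 to 1.84). The pooled ratio was 4.43-fold higher in knockouts (95% exact interval 1.92 to 10.4). These intervals cover counting error only and leave out the spread between libraries. Both genes were selected on these same values, so the ratio and its intervals are a description. On the log2 scale the change was 2.15, and the SD of the ratio within groups was 0.71. In pooled counts Ppm1k was 2.93-fold lower and Bckdk 1.51-fold higher. Set against the 3 complex subunits, a ratio added after the values were seen, controls had 1.06, 1.40 and 0.741 Ppm1k counts per subunit count and knockouts 0.350, 0.367 and 0.314, which do not overlap. The same ratio for Bckdk was 0.188, 0.267 and 0.259 in controls and 0.600, 0.433 and 0.171 in knockouts, which overlap. Both are transcript ratios and do not measure the phosphorylation of the complex.

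**Figure D2:**
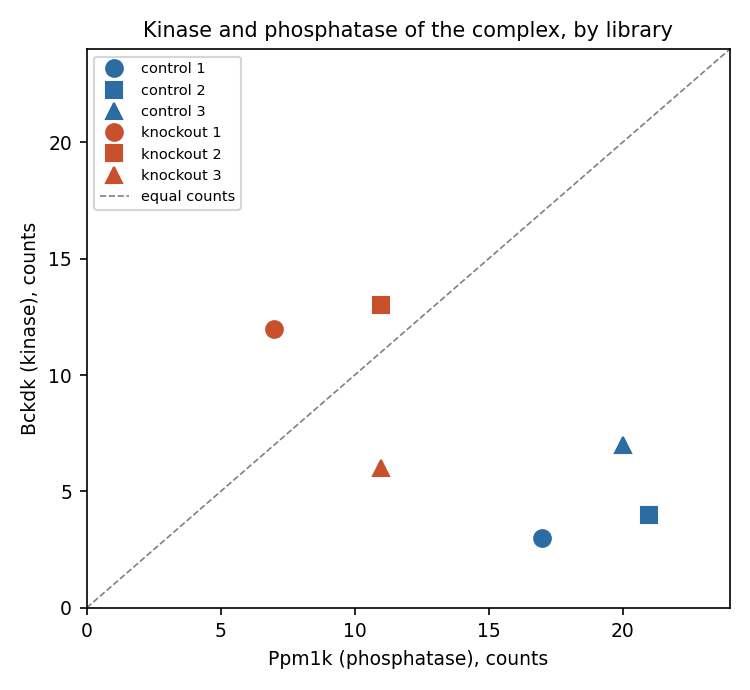
Counts of Ppm1k (horizontal axis) and Bckdk (vertical axis) in each of the 6 libraries, with a dashed line at equal counts. The 3 controls sit at 17 to 21 Ppm1k counts and 3 to 7 Bckdk counts, and the 3 knockouts at 7 to 11 Ppm1k counts and 6 to 13 Bckdk counts.

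Ivd (chromosome 2, 118861954 to 118882909) encodes isovaleryl-CoA dehydrogenase, the first step that belongs to leucine alone. Controls held 21, 25 and 31 counts and knockouts 13, 23 and 13. The control levels were 265, 231 and 289 CPM, and the knockout levels 103, 161 and 79.3 CPM. Every knockout lay below every control, with knockout 2 nearest to them, and the means were 262 ± 28.8 and 115 ± 42.3 CPM (SD, n = 3 each). The log2 fold change was -1.19 ± 0.27 (SE), and 3.57% of all tested genes had a lower one. It passed the edgeR threshold with any 1 library left out, between -1.53 without knockout 2 and -0.97 without knockout 3. It did not pass with DESeq2, where the log2 fold change was -1.21. These fits reuse the libraries on which Ivd was selected and are a description.

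Hibadh (chromosome 6, 52546228 to 52640389) encodes 3-hydroxyisobutyrate dehydrogenase of the valine branch. It had 177, 102 and 140 CPM in controls and 127, 161 and 159 CPM in knockouts, ranges that overlap. The log2 fold change was 0.14 ± 0.30 (SE) and -0.059 without control 2. Set against each other, Ivd had 1.5, 2.27 and 2.07 counts per Hibadh count in controls and 0.813, 1.0 and 0.5 in knockouts, a comparison added after the values were seen. In that ratio the groups did not overlap, so the leucine-branch gene was lower relative to the valine-branch gene in each knockout.

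The promoter windows of the 2 lower genes and of the kinase gene, whose groups overlapped, are shown as context. Each is the 250 bases before the RefSeq start (GRCm38.p6), 5′ to 3′ on the gene's strand. Capitals mark GGGCGG, the core of the Sp1 site, and CCAAT, on either strand (CCGCCC and ATTGG on the other).
Ppm1k, chr6:57535488-57535737, minus strand: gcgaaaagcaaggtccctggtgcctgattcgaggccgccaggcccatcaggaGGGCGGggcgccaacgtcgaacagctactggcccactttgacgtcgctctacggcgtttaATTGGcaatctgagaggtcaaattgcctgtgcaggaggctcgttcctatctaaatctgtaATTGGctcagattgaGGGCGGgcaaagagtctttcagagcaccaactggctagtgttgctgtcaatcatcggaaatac
Ivd, chr2:118861744-118861993, plus strand: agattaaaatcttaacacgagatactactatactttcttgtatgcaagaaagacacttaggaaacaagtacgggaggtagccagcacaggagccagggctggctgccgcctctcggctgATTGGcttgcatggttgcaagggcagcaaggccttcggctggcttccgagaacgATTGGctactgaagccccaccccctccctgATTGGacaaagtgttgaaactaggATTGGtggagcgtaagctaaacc
Bckdk, chr7:127903823-127904072, plus strand: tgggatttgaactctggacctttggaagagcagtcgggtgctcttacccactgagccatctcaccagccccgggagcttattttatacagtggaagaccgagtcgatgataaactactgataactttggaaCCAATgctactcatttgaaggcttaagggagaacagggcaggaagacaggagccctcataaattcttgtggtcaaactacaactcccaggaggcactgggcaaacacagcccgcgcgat
The Ppm1k window holds 2 GGGCGG and 2 CCAAT matches, Ivd holds 4 CCAAT matches, all as ATTGG, and Bckdk holds 1 CCAAT match. Genes whose groups overlapped hold them too, with 3 GGGCGG and 2 CCAAT matches in 1 of the 2 Bckdhb windows and 2 GGGCGG and 1 CCAAT match in that of Hibadh, so both motifs occur in windows of lower and of overlapping genes alike. Among all 32851 promoter windows of this length, 32.7% hold GGGCGG and 33.8% hold CCAAT, while 0.840% hold at least 4 CCAAT matches and 10.1% at least 2. CCAAT was added to the search after the sequences had been seen. The other motifs searched on both strands were TGCGCA (the core of the NRF-1 site), TNAAGGTCA (ERR), CCGGAAGT (GABP) and TGATGNAAT (ATF4 with C/EBP). They occur in 6.43%, 1.14%, 2.88% and 0.816% of all windows. RefSeq windows were matched for 7 of the 8 genes, 9 windows in all, and of these last motifs 1 match was found, that of TGCGCA in Hibadh. A match is a description of letters and not a shown binding site.

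Compared per exon length, Bckdha had the highest mean level of the 8 genes in controls and Bcat2 the lowest. Mean levels in controls were 56.9 ± 29.7 CPM per kb for Bckdha, 47.5 ± 5.23 for Ivd, 32.9 ± 2.45 for Ppm1k and 23.0 ± 4.29 for Bckdhb (SD, n = 3 each). Dbt followed at 14.3 ± 0.713, Hibadh at 13.7 ± 3.69, Bckdk at 12.6 ± 4.33 and Bcat2 at 11.5 ± 9.73 CPM per kb (SD, n = 3 each). Bckdha and Ivd overlapped, and so did the 4 lowest genes, whereas Ivd, Ppm1k, Bckdhb and Dbt had ranges that did not overlap with their next neighbour in that chain.

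In knockouts Bckdha was again highest, at 48.3 ± 10.7 CPM per kb (SD, n = 3), and Ppm1k moved from rank 3 to rank 8 by mean, at 11.1 ± 1.79 with libraries from 9.25 to 12.8. The other 6 genes had knockout means between 14.6 and 20.8 CPM per kb, and their libraries overlapped. The lowest knockout libraries of Bckdk (9.90), Bckdhb (11.7), Dbt (11.9), Bcat2 (12.2) and Hibadh (12.5) lie within the Ppm1k range, so the last rank is not separated from these 5 genes. Lengths are the union of annotated exons, from 1.805 kb for Bckdhb to 10.179 kb for Hibadh, so levels of genes with long, little used exons are understated. Exons of Bckdha share 1171 of 1899 bases with B3gnt8 on the opposite strand, which had 2 counts in all. Bcat2 shares 622 bases with 0610005C13Rik on the opposite strand (0 counts), and Hibadh shares 122 bases with Gm24355 (1 count). The sources used here do not say whether strand was kept, so reads in these stretches cannot be assigned to 1 gene with certainty.

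**Figure D3:**
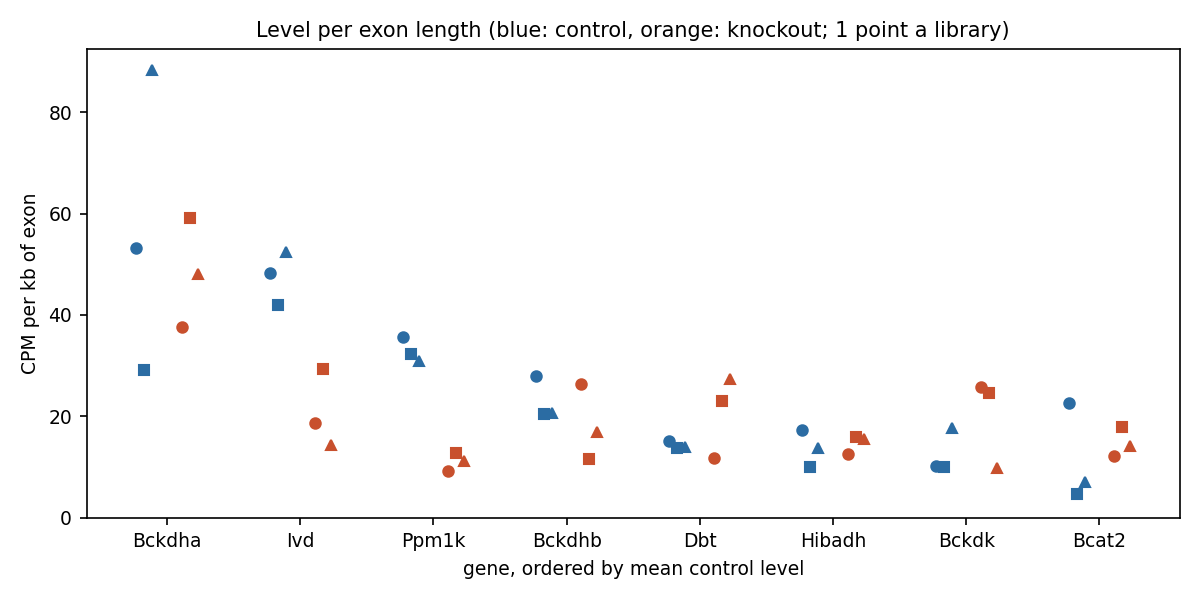
Level of the 8 genes in CPM per kb of exon, ordered by the control mean, with 1 point per library (circle, square and triangle for replicates 1, 2 and 3). Ppm1k has rank 3 in controls (30.9 to 35.7) and rank 8 by mean in knockouts (9.25 to 12.8), where its range overlaps that of 5 other genes.

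Around these genes, 27 others of uptake, breakdown, control and use of branched-chain amino acids were listed, and 23 had enough counts to be tested. Of the 23, 4 passed upward, where 3.20% of all tested genes did, and 1 passed downward, where 2.18% did (edgeR adjusted p under 0.05). The other 18 did not pass. All 4 higher genes belong to import or to tRNA charging and none to breakdown. Slc7a5, the transporter that imports large neutral amino acids, gave 2, 2 and 1 counts over the controls against 27, 18 and 27 over the knockouts. Its edgeR adjusted p was 2.90e-07, at a log2 fold change of 3.22 ± 0.49 (SE). Slc3a2, its partner chain, gave 1, 6 and 4 counts against 19, 14 and 19. Its edgeR adjusted p was 0.00970, at a log2 fold change of 1.67 ± 0.45 (SE). The call of Slc3a2 was lost without control 1, without knockout 1 and with DESeq2.

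Lars, which charges tRNA with leucine, averaged 47.8 ± 2.39 CPM in controls and rose to 276 ± 61.8 CPM (SD, n = 3 each), with an edgeR adjusted p of 9.06e-09 at a log2 fold change of 2.49 ± 0.34 (SE). Iars, the isoleucine enzyme, averaged 63.5 ± 22.1 CPM in controls and rose to 267 ± 94.5 CPM (SD, n = 3 each), with an edgeR adjusted p of 9.82e-07 at a log2 fold change of 2.08 ± 0.33 (SE). Vars, the valine enzyme, did not pass, at a log2 fold change of 0.92 ± 0.39 (SE), although every knockout lay above every control. Klf15, a transcription factor known to raise genes of this breakdown in muscle, had 2 counts in each control and 5, 9 and 13 in knockouts. It did not pass (log2 fold change 1.56 ± 0.62 SE, edgeR adjusted p = 0.135).

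Of the 18 listed breakdown enzymes beside the 8 genes, 16 were tested. Of these, 0 passed upward, where 3.20% of all tested genes did, 1 passed downward, where 2.18% did, and 15 did not pass. At an unadjusted p under 0.05 there were 0 higher and 2 lower, where 9.24% and 7.21% of all tested genes were, and DESeq2 called 0 in either direction, where it called 1.21% higher and 0.483% lower. These counts are near the background. Acadsb, which oxidises the isoleucine-derived acyl-CoA, was the 1 gene that passed, at 150 ± 58.0 CPM in controls and 65.6 ± 12.4 CPM in knockouts (SD, n = 3 each). Its edgeR adjusted p was 0.0210, at a log2 fold change of -1.24 ± 0.36 (SE). Its call was lost with DESeq2 and without control 2, control 3, knockout 2 or knockout 3. Ivd, Acadsb and Acad8 encode the acyl-CoA dehydrogenases that follow the complex in the leucine, isoleucine and valine branches. Acad8 gave 0, 8 and 3 counts over the controls and 3, 1 and 2 over the knockouts, which overlap, and did not pass (log2 fold change -1.34 ± 0.81 SE, edgeR adjusted p = 0.422).

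In the branches of leucine, isoleucine and valine together, 9 of the 10 tested enzymes reported here had fitted changes below 0. Of all 6838 genes tested, 3297 had. The median log2 fold change of the 10 was -0.52, against 0.03 for all genes tested. The groups did not overlap, with knockouts lower, for 5 of the 10, where 9.81% of all tested genes were so. They are the same 5 as among the 16 tested breakdown enzymes. Of those 16, 11 had fitted changes below 0, at a median of -0.36. In the leucine branch after Ivd, Mccc1 and Mccc2, the chains of methylcrotonyl-CoA carboxylase, had log2 fold changes of -0.49 ± 0.39 and -0.68 ± 0.48 (SE). Auh, the hydratase that follows, had -0.76 ± 0.61 (SE), and none of these 3 passed. Acat1, the thiolase at the end of the isoleucine branch, had 423 ± 17.2 CPM in controls and 291 ± 25.9 CPM in knockouts (SD, n = 3 each) and did not pass, with an edgeR adjusted p of 0.0994 at a log2 fold change of -0.54 ± 0.20 (SE). It passed when only genes of higher counts were tested. In the valine branch next to Hibadh, Aldh6a1 gave 6, 26 and 20 counts over the controls against 2, 21 and 36 over the knockouts, so its libraries within a group differed more than the groups did.

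The 5 tested propionate genes, which finish the isoleucine and valine routes, had 3 fitted changes above 0 and 2 below, and none passed. Bcat1, the cytosolic counterpart of Bcat2, was below the count minimum with 1 count in controls and 8 in knockouts, a ratio of 5.46 with a 95% exact interval from 0.731 to 242. Acad8, Mccc1, Mccc2, Auh, Acat1, Aldh6a1, Vars, Klf15 and Bcat1 are named to describe their step and were chosen after their values were seen.

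**Figure D4:**
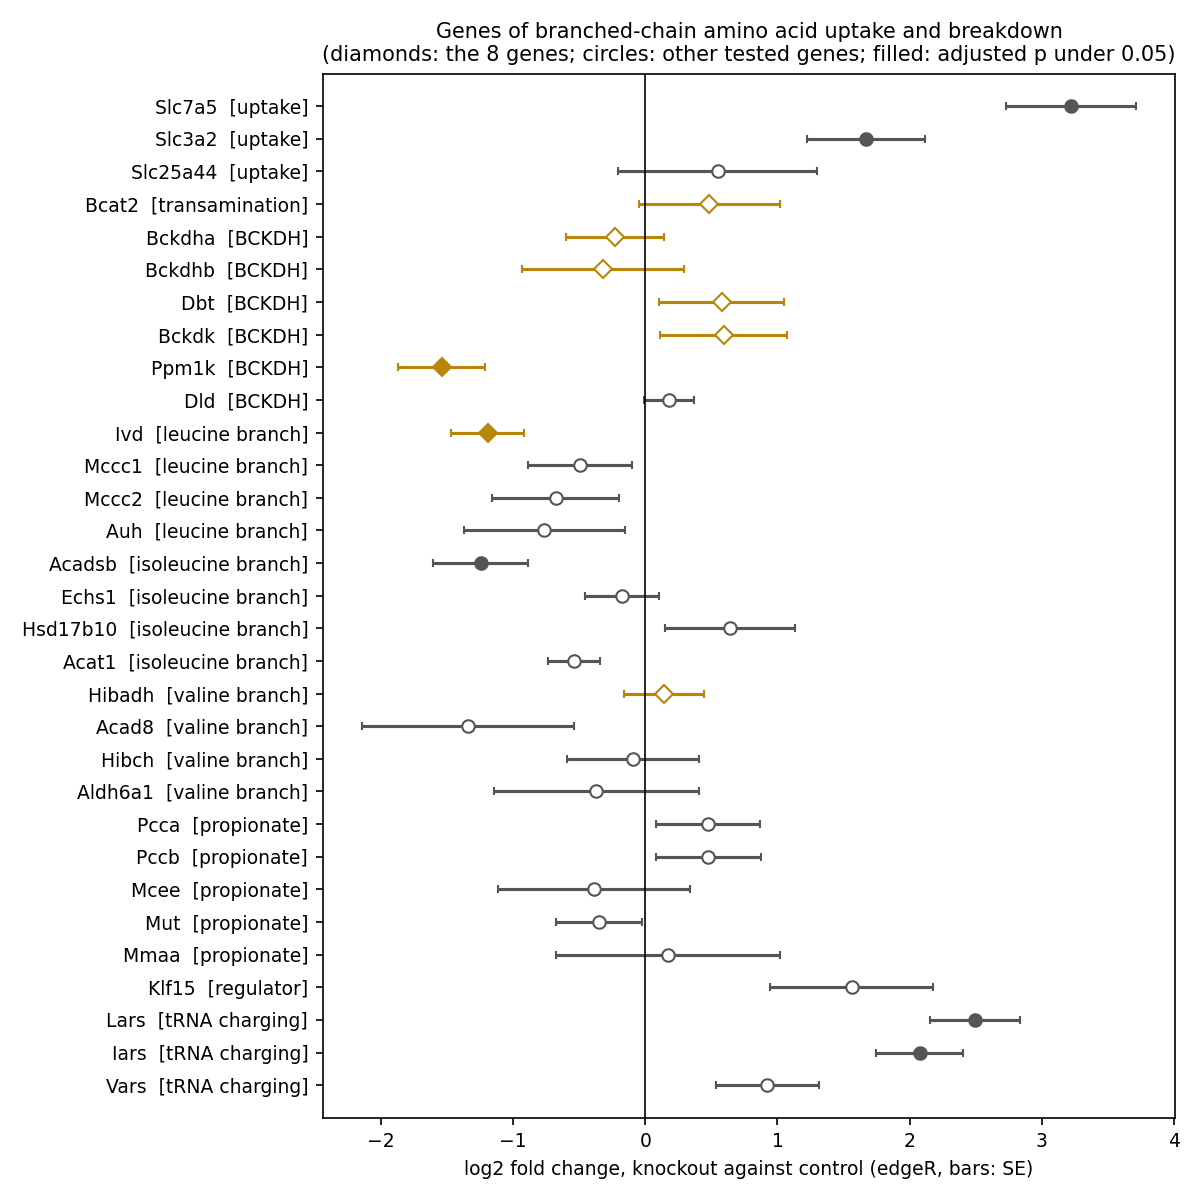
Fitted log2 fold change (knockout against control, bars are SE) along the route, for the 8 genes (diamonds) and the other 23 tested genes (circles); filled symbols passed edgeR's adjusted p under 0.05. Ppm1k, Ivd and Acadsb are the filled symbols below 0, and Slc7a5, Slc3a2, Lars and Iars those above 0.

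The pyruvate and 2-oxoglutarate dehydrogenase complexes are built like the branched-chain complex and share Dld with it. Of their 13 other listed genes 12 were tested, with 2 higher, where 3.20% of all tested genes were, 0 lower, where 2.18% were, and a median log2 fold change of 0.15. Of the 12, 2 were lower at an unadjusted p under 0.05, where 7.21% of all tested genes were, and 0 with DESeq2, where 0.483% were. Pdhb, the E1 beta subunit for pyruvate, averaged 355 ± 113 CPM in controls and rose to 804 ± 101 CPM (SD, n = 3 each), with an edgeR adjusted p of 4.23e-07 at a log2 fold change of 1.16 ± 0.18 (SE). Its branched-chain counterpart Bckdhb had -0.32 ± 0.61 (SE). Pdhx, which anchors E3 in that complex, had 1.15 ± 0.35 (SE, edgeR adjusted p = 0.0303), and its call was lost with DESeq2 and without control 1, control 2, knockout 1 or knockout 3. Dlat, the E2 subunit for pyruvate, had 0.14 ± 0.20 (SE), and Dbt per Dlat was 0.137 in pooled control counts and 0.188 in pooled knockout counts (ratio of the ratios 1.37, 95% exact interval 0.668 to 2.92). Pdk4, a kinase that inactivates the pyruvate complex, gave 44, 22 and 13 counts over the controls and 76, 50 and 82 over the knockouts, and did not pass (log2 fold change 0.82 ± 0.56 SE, edgeR adjusted p = 0.580). Its groups overlap through control 1, without which it passed at 1.56 (edgeR adjusted p = 1.62e-05). The kinase gene Pdk2 went the other way, at -0.45 ± 0.21 (SE), with every knockout below every control. Pdk1 had 0.13 ± 0.30 (SE) with overlapping groups, and neither Pdk1 nor Pdk2 passed. Pdk3 had too few counts to be tested. Among the phosphatases that activate the pyruvate complex, Pdp1 had a log2 fold change of -0.15 ± 0.52 and Pdp2 of -1.32 ± 0.54 (SE), neither of which passed, beside -1.54 for Ppm1k. Whether the complexes differ from each other in their change was not tested. Dlat, Pdk1, Pdk2, Pdk3, Pdk4, Pdp1 and Pdp2 were chosen after their values were seen.

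The 3 genes with the profile most like that of Ppm1k over the 6 libraries were Nfix, Pcsk6 and Notch2, with Pearson r of 0.995 each. They were taken from 1494 tested genes with at least as many counts, on log2 CPM with a prior count of 2. With 2 groups of 3 libraries such values follow mainly from the difference between groups, and they are a description.

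In the authors' deposited table, which also gives mt-Nd2 as lower (log2 fold change -5.36), the log2 fold change of Ppm1k was -1.53 and that of Ivd -1.21. The same deposited table from the authors has Bckdhb at -0.29, Bckdha at -0.23, Hibadh at 0.15, Bcat2 at 0.49, Bckdk at 0.60 and Dbt at 0.61. Its values rest on the same libraries and are no separate evidence.

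Markers of cell types were checked in the same libraries. The 6 cardiomyocyte markers summed to between 103348 and 137116 CPM in controls and between 113593 and 120056 CPM in knockouts, and none was at 0. Of these 6, Actc1 (-0.60 ± 0.13 SE on the log2 scale, edgeR adjusted p = 0.000594) and Tnnt2 (-0.39 ± 0.12 SE, edgeR adjusted p = 0.0453) passed as lower, and 0 passed as higher. With Tnni3 there were 3 whose groups did not overlap, each lower in knockouts. Of all tested genes, 2.18% passed as lower, 3.20% passed as higher and 9.81% did not overlap with knockouts lower. Fitted changes were below 0 for 3 of the 6 markers and above 0 for the other 3. The call of Actc1 was lost without knockout 1, and that of Tnnt2 with any 1 library left out, with DESeq2 and with no filter on low counts. The 4 leukocyte markers summed to between 213 and 372 CPM in controls and between 91.3 and 165 CPM in knockouts, and the 3 smooth muscle markers to between 484 and 879 against 294 and 463 CPM. Both of these sums were lower in every knockout. From them Csf1r (-1.39 ± 0.31 SE, edgeR adjusted p = 0.00118) and Acta2 (-0.998 ± 0.24 SE, edgeR adjusted p = 0.00221) passed as lower, and both calls were lost with DESeq2 and that of Acta2 also without control 2. These 5 markers were named after their values were seen. They moved the same way as Ppm1k and Ivd, and their part in those results was not tested. The 6 fibroblast markers summed to between 10377 and 10926 CPM in controls and 9152 and 10532 CPM in knockouts, and the 5 endothelial markers to between 1284 and 1528 against 1082 and 1334 CPM. The 4 erythroid markers summed to between 796 and 1703 CPM in controls and between 899 and 1591 CPM in knockouts. Of 4 adipocyte markers, a cell type rich in this pathway, 3 were at 0 in all libraries and the fourth had 1 count.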

How the data were processed

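TruSeq libraries were sequenced on a MiSeq, per the labels' protocols. Each library was taken as 1 mouse, and p-values measure only the spread between libraries. The count files deposited by the authors hold unnormalised whole counts for each gene; the submitters' processing notes name HISAT 0.1.6, featureCounts 1.3.5-p4, R 3.2.0, edgeR 3.11.2 and GRCm38. The sources used here name no strand setting, treatment of multiple alignments or annotation release. The authors' deposited table gives log2 fold changes, log2 CPM, a likelihood ratio score and p-values; the authors' normalised values were not used.

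Symbols, positions and exon lengths came from GENCODE M21 (GRCm38), which matched 37570 of 39142 nuclear identifiers. Counts of nuclear genes with at least 15 counts over the 6 libraries were fitted with edgeR 4.0.16 (quasi-likelihood, robust, TMM, no covariate; R 4.3.3). The 35 mtDNA rows and 5 rRNA-collecting loci (Gm42418, Lars2, Gm23935, Gm15564, Mir6236), which held between 80.6% and 84.9% of nuclear counts, were left out. Benjamini-Hochberg adjustment ran over all 6838 genes tested, at 0.05, two-sided. SE is that implied by the F statistic. Pooled ratios are scaled by effective library size, with 95% Clopper-Pearson intervals, and ratios of pooled ratios have exact conditional intervals. Replicates differed by more than sampling noise (chi-square per degree of freedom 1.19 to 1.43). The procedure was also run on simulated data, from which no result is reported here. Alternatives were DESeq2 1.42.0, other filters and scalings, the replicate block and each library left out.

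The 8 genes, the gene lists and the loci left out were chosen with earlier results of these data known, and 1 listed gene is not reported here. Named genes were the 8, listed genes past the threshold (up to 10 by smallest adjusted p), further listed genes needed to describe a step, and the 3 genes of profile most like Ppm1k.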

Additional observations from a re-analysis of the deposited data

How the results depend on the processing

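The alternatives reused the libraries on which the 8 genes were selected, so their counts of passing are a description and no separate evidence. Ppm1k stayed lower and past the threshold in all 15 alternatives run, with log2 fold changes from -1.65 to -1.44. With DESeq2 it passed only narrowly. Ivd stayed lower in all 15 and past it in 14, the exception being DESeq2. That method called 1 of the 8 genes lower, where it called 0.483% of all tested genes lower. Changes of direction occurred for Bckdha without control 3 (0.30; -0.59 to 0.30 with 1 library left out) and Hibadh without control 2 (-0.059; -0.059 to 0.31). They also occurred for Aldh6a1 without knockout 1 (-1.04 to 0.082), Dlat without control 2 (-0.079 to 0.31) and Pdp1 without control 2 or knockout 2 (-0.42 to 0.58, with 0.11 without knockout 2), and none of these 5 genes passed the threshold in any of them. Stricter filters left 4 of the 8 tested (filterByExpr on nuclear library sizes, or at least 60 counts) or 6 (filterByExpr on all counts).

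Over all nuclear genes 219 were higher and 149 lower. DESeq2 called 83 higher and 33 lower, and 99 were lower with no filter on low counts. With 1 library left out, between 147 and 178 were higher and between 85 and 113 lower, the fewest without knockout 1 (85) and control 2 (94). Of the other branched-chain pathway genes, 1 was called lower at first. It was 2 with either filterByExpr setting and with at least 60 counts (Acadsb and Acat1), where fewer genes were tested, 0 with DESeq2, and between 0 and 1 with 1 library left out. The log2 change of the kinase to phosphatase ratio was between 1.84 and 2.54 with 1 library left out. Where not stated, the cause was not tested.

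Replicate numbers are shared between the groups but mark no shared litter or day in the labels. Same-numbered libraries did not deviate together (r of -0.01, 0.004 and 0.03), and not every library correlated best with its own number. The replicate block gave 231 genes higher and 150 lower, and the same calls for the 8 genes (0 higher, 2 lower). It also called Pdk4 higher (0.83, edgeR adjusted p = 0.00524), which made 3 instead of 2 higher genes of the pyruvate and 2-oxoglutarate complexes. The count was also 3 with no filter on low counts, again with Pdk4 (0.84, edgeR adjusted p = 0.0180), and between 1 and 2 with 1 library left out. At this depth 4 of the 8 genes have under 60 counts in all, and their pooled intervals allow changes in either direction.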
